A study of Rattus norvegicus with 2 samples.

Results

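Oxidative phosphorylation is carried out by 5 protein complexes of the inner mitochondrial membrane, and the genes described here encode their nuclear-encoded subunits together with cytochrome c. They were taken by symbol (Ndufa, Ndufb, Ndufc, Ndufs, Ndufv, Uqcr and Atp5 genes without assembly factors, Sdha to Sdhd, Cyc1, Cycs, and the Cox4 to Cox8 subunit genes), after the RefSeq accessions of the array probes had been matched to rat symbols. This gave 81 genes of the 39500 genes and unnamed transcripts on the array, and each was represented by its probe with the highest mean signal. The rule for this choice uses symbols and signal level, not a difference between the sexes. Of the 81 genes, 80 were well above background on both arrays, and 1, Cox8c, on neither. Complex I had 33 of the measured genes, complex II 4, complex III 9, complex IV 17 and complex V 16, and cytochrome c had 1. A further 31 protein-coding symbols that fit the choice matched no probe and were not analysed here; 22 of these are later copies of subunit genes, and the others include Ndufs6, Ndufa8, Cox7a1 and Atp5mc3. No mitochondrially encoded subunit was analysed here.

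The samples were 1 RNA pool from the hypothalamus of male SHR and 1 from female SHR, a rat strain bred for spontaneous hypertension. Every pool held 100 ng of total RNA from each of 5 untreated rats aged 9 weeks, killed by decapitation under ether, whose hypothalamic block was dissected by 1 operator. Each pool was read on 1 single-colour (Cy3) Agilent array. With 1 array per sex there was no replicate and no test, and all differences describe these pools; a pool also hides the spread among its 5 animals. A difference given here is the log2 signal of the male pool minus that of the female pool, each array having first been divided by the 75th percentile of its rat spots (2203 units for the male pool and 2254 units for the female pool). A positive difference is therefore higher in the male pool. The female array was slightly brighter as a whole, so a gene with equal raw signals comes out slightly above 0.

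In the respiratory chain, complexes I and II take electrons from NADH and succinate and pass them to ubiquinone, complex III hands them to cytochrome c, and complex IV delivers them to oxygen. Complexes I, III and IV pump protons, and complex V, the ATP synthase, lets protons back in to make ATP. Neurons meet most of their ATP demand in this way, and a few subunits have paralogues that are used mainly in muscle, lung, testis or at low oxygen. Many of the nuclear genes have promoters bound by the factors NRF1 and GABP, an ETS family factor also called NRF2.

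The subunit genes were nearly equal in the male and female pools. Their median log2 difference was -0.0051 over 80 genes, against -0.016 over all 24134 genes and transcripts well above background on both arrays. In the male pool 39 subunit genes were higher against 41 lower, where 45% of all such genes and transcripts were higher and 55% lower. None of the 80 was at least 2-fold apart in either direction, against 1.16% of all genes and transcripts that were 2-fold higher and 0.613% that were 2-fold lower in the male pool (2.56% and 1.64% where background was exceeded on at least 1 array). The median was above 0 with normexp background correction, another way of removing background from the spot signal (0.0094, with all genes at 0.0079). Of the 80 subunit genes 72 (90%) were within 0.1 of equality, against 55.4% of all genes and transcripts, and the middle 50% of them lay between -0.030 and 0.039. With a size of 1.2-fold, 2 subunit genes were higher in the male pool and none lower, against 7.16% and 5.73% of all genes and transcripts. These were Ndufa4l2 and Cox8b, whose probes were the dimmest of those measured.

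**Figure D1:**
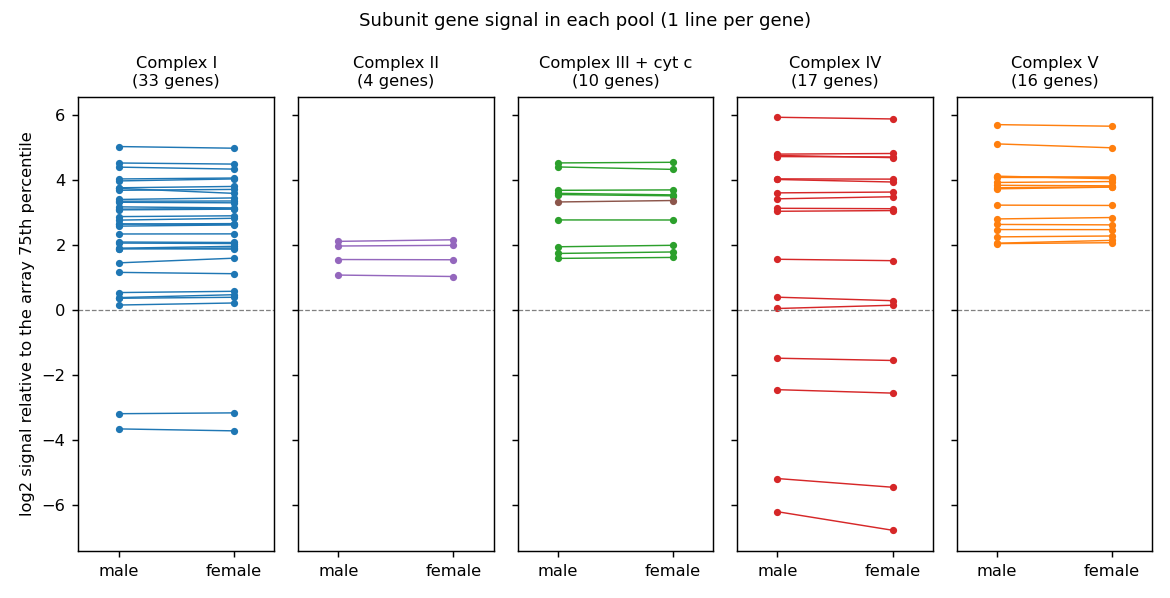
Log2 signal of the 80 subunit genes in the male pool (left) and the female pool (right), relative to the 75th percentile of each array (dashed line), 1 line per gene, with cytochrome c in brown beside complex III. Lines are almost flat in every complex, and the only visible slopes belong to the dim Ndufa4l2 and Cox8b at the bottom of complex IV; heights of different probes are not comparable with each other.

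Bright probes vary less than dim ones, and 74 of the 80 subunit genes were brighter than the 75th percentile. Among those 74 the median difference was -0.015 and the SD 0.051, and the middle 90% lay between -0.072 and 0.078. None of the 74 was 1.2-fold apart, against 0.538% of all genes and transcripts in that signal range that were higher and 0.194% that were lower in the male pool. Of the 74 subunit genes 34 were higher against 40 lower, where the shares of all genes and transcripts were 43.2% and 56.8%. All 4645 genes and transcripts in the same signal range had a median of -0.013, an SD of 0.092 and a middle 90% between -0.14 and 0.11. Of the 74 subunit genes 69 (93.2%) were within 0.1 of equality, against 80.7% of all genes and transcripts in that range. However, only 18 of the 74 lay at log2 signals of 0 to 2, against 3239 of the 4645. There the shares within 0.1 were 83.3% of the subunit genes and 78.0% of all. At 2 to 4 they were 97.5% and 87.7%, and above 4 they were 93.75% and 84.2%. These differences in spread were not tested. Across the 80 genes Pearson's r between the pools was 0.999 on the log2 signal, a value that rests largely on how far probes differ in brightness.

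The noise of a single spot was measured on probes printed on at least 8 spots, as the SD of their male minus female differences. It was 0.034 at log2 signals above 2 (452 probes), 0.041 at 0 to 2 (546 probes), 0.056 at -2 to 0, 0.098 at -4 to -2 and 0.19 below -4 (47 probes), and it covers spot printing and scanning only. By that measure 38 of the 80 subunit genes differed by more than 1 technical SD, 20 of them higher and 18 lower in the male pool. The share of all genes beyond 1 technical SD is not given here, so that count has nothing to be set against. More than 2 technical SD separated the pools for 11 genes, 7 of them (8.75%) higher in the male pool and 4 (5%) lower. Over all genes and transcripts the shares beyond 2 technical SD were 10.7% and 13.2%, and above the 75th percentile 16.3% and 24.1%.

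**Figure D2:**
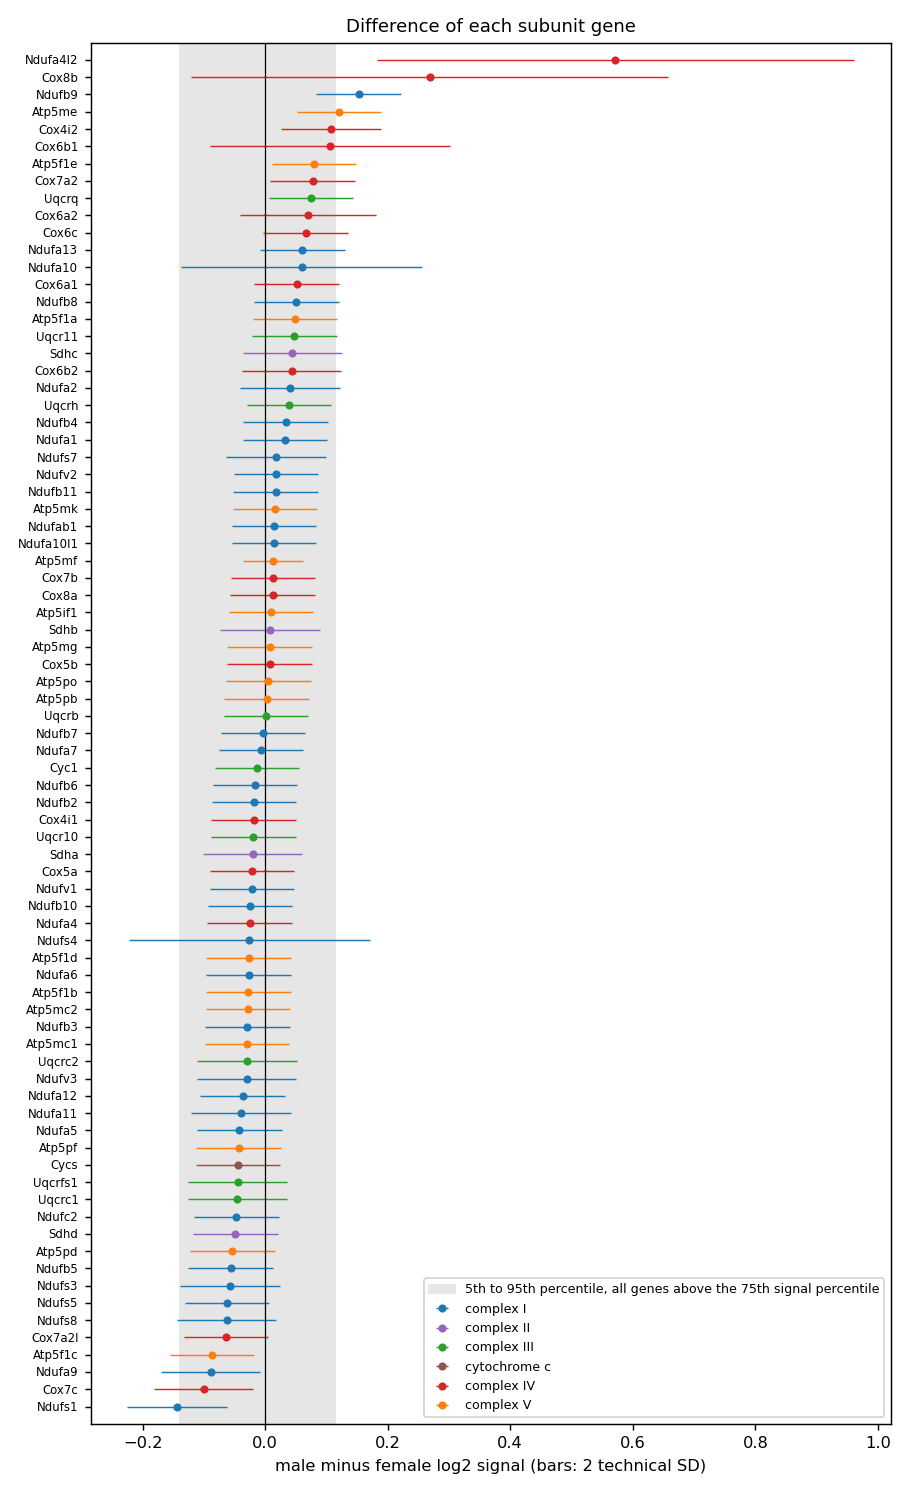
Male minus female log2 signal of 79 of the 80 subunit genes, sorted, with bars of 2 technical SD and colours by complex. The grey band spans the 5th to 95th percentile of all genes above the 75th percentile of signal (-0.14 to 0.11), and most subunit genes lie well inside it, between Ndufs1 at -0.14 and Ndufb9 at 0.15, with the dim Cox8b and Ndufa4l2 beyond.

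Promoters from the ends of this range are shown beside that of Cycs, a classical NRF1 target. Given are the 250 bases before the gene start in RefSeq, build GRCr8, written in the direction of transcription. Capitals mark matches to the letters of NRF1 (GCATGCGC), ETS (CCGGAAG) and YY1 (AAGATGGC) on either strand. Ndufs1 had the lowest difference among the measured subunit genes, Atp5me the highest among those brighter than the 75th percentile with a promoter sequence, and Ndufa4l2 the highest of all.
Ndufs1, chr9:72073606-72073855, minus strand: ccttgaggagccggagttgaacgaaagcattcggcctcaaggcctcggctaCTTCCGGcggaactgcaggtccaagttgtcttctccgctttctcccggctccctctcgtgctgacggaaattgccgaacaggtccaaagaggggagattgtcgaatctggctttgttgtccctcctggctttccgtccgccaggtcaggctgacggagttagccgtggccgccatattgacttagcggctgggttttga
Atp5me, chr14:1464610-1464859, plus strand: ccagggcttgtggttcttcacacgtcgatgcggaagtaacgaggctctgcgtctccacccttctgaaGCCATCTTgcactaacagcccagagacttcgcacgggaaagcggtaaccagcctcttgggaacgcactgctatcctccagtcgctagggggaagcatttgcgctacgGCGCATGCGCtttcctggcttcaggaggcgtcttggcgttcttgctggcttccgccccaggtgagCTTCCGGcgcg
Cycs, chr4:80984768-80985017, minus strand: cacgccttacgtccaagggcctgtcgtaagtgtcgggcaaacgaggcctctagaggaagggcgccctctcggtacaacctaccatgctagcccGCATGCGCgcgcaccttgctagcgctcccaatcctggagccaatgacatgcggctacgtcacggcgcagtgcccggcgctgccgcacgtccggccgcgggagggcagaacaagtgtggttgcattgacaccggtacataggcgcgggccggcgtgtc
Ndufa4l2, chr7:65241919-65242168, plus strand: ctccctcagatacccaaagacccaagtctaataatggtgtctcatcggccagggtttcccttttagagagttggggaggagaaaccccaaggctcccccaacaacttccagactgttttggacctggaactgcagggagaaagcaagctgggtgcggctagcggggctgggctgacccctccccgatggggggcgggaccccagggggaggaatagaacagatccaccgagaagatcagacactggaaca

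Atp5me, at the upper end, had matches to the letters of all 3 factors, while Ndufs1, at the lower end, had 1 ETS match, which starts at position -199 relative to the gene start. Cycs had 1 NRF1 match, and the window of Ndufa4l2 held none of these letters. The windows of Atp5f1e, at 0.080, and Cox7c, at -0.10, are not shown, and they held no NRF1, ETS or YY1 match either. Both genes also lay near the ends of the range among bright probes, Atp5f1e at the upper and Cox7c at the lower end. Each end therefore had a promoter with matches and a promoter without any. Promoter sequences were matched for 71 of the 81 genes. The letters CCGGAAG occurred in 20 of the 71 (28.2%), against 7.74% of 27457 rat promoters of the same length. GCATGCGC was found in 10 (14.1%, against 2.38%) and AAGATGGC in 2 (2.82%, against 1.69%). SP1 letters, GGGCGG, were in 25 (35.2%, against 32.4%), close to the share of all promoters. No member promoter had matches of different motifs that overlapped. Subunit genes with the ETS letters had a median difference of 0.010 (20 measured genes), and those without them had -0.021 (50 genes). The split was much the same for the SP1 letters, with 0.013 (24 measured genes) and -0.021 (46 genes). For the NRF1 letters the order was the opposite, with -0.027 over 9 measured genes that had them and -0.016 over 61 that did not. These matches describe the letters in the window only. The genes compared in these splits were not matched for signal, with which differences also moved, and no split was tested.

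Complex I, which oxidises NADH, leaned slightly to lower values in the male pool, with 12 of its 33 genes higher, 21 lower and a median of -0.022. The core subunits of complex I, which carry the flavin and the iron-sulphur clusters, were higher for 2 of 7. The other subunits of complex I were higher for 10 of 26, with a median of -0.017. Ndufs1, the largest iron-sulphur subunit, gave 5998.5 units in the male pool and 6781 units in the female pool. Its difference of -0.14 was the lowest of the 80 and 3.54 times its technical SD, on a single probe with 1 spot. The other core subunits were closer to equality. Ndufs8, which carries a pair of iron-sulphur clusters, was at -0.063 and Ndufs3 at -0.057. Ndufv1, which binds NADH, was at -0.022, and Ndufs7, which lies at the quinone site, was at 0.018. Ndufv2 was at 0.017.

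Among the accessory subunits of complex I, Ndufb9 in the membrane arm gave 29394 units in the male pool and 27063 units in the female pool. At 0.15, or 4.43 technical SD, it stood highest among the subunit genes brighter than the 75th percentile. Its spot lay in a patch of the slide, meaning that 2 or more of its 18 closest neighbours among the measured spots of other probes were 2-fold apart in 1 direction, as did 11.1% of measured spots. What the patch contributes to this value was not tested. Ndufa9, an accessory subunit close to the quinone site, gave 2857 units in the male pool and 3110 units in the female pool, a difference of -0.089. Ndufa13, also studied as Grim-19, was at 0.061 on its brightest probe and at -0.0080 on the other. The dim probes for Ndufs4 and Ndufa10 were at -0.026 and 0.060, both within 1 technical SD of 0.098. Ndufab1, the mitochondrial acyl carrier protein, was at 0.015, with -0.15 on its dim second probe.

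Complex II, which is also the succinate dehydrogenase of the citric acid cycle, ranged from -0.049 to 0.045 over 4 genes, with a median of -0.0065. The flavoprotein gene Sdha gave 8595 units in the male pool and 8923 units in the female pool, a difference of -0.021. Sdhb, the iron-sulphur subunit, was at 0.0076, and its spot lay in a patch. The membrane anchors went opposite ways, with Sdhc at 0.045 and Sdhd at -0.049. None of the 4 was more than 1.41 technical SD from equality.

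In complex III 4 genes were higher against 5 lower in the male pool, and the median was -0.013. All 4 of its core genes were lower, by small amounts, although with normexp Cyc1 was at 0.024. Uqcrc1 and Uqcrc2, the large matrix-side proteins, were at -0.045 and -0.030, Uqcrfs1, the Rieske iron-sulphur protein, at -0.045, and Cyc1, which reduces cytochrome c, at -0.013, with 0.022 on its second probe. Of the 5 small subunits 4 were higher, with a median of 0.039. Uqcrq was highest among them, at 46464 units in the male pool and 45152 units in the female pool, a difference of 0.075 with 0.095 on its second probe. Uqcrh, the hinge protein, was at 0.039 and Uqcr11 at 0.048. Cycs, the mobile carrier cytochrome c, gave 22008 units in the male pool and 23226 units in the female pool. It was at -0.044, and at -0.086 on its second probe.

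Complex IV, cytochrome c oxidase, had 12 genes higher against 5 lower in the male pool, and its median was 0.043 over 17 genes. That count was 9 against 8 with median centring or quantile normalization and 10 against 7 with the signal trend removed, a step described with the plot of difference against signal. Its catalytic subunits are made in the mitochondrion and were not analysed here. Among the usual nuclear subunits, Cox4i1 was at -0.019, Cox5a at -0.021 and Cox5b at 0.0074. Cox7a2 gave 35558.5 units in the male pool and 34493 units in the female pool, and its probes were at 0.077 and 0.069. Cox7c, which gave 2264 units in the male pool and 2484 units in the female pool, was lowest in the complex at -0.10. Cox8a was at 0.012, Cox6a1 at 0.051 and Cox6c at 0.066, with -0.0056 on its second probe. Cox6b1 was at 0.11 on a dim probe whose technical SD was 0.098. Ndufa4, once counted in complex I and now in complex IV, was at -0.025.

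Paralogues, most of them in complex IV and restricted to certain tissues, were measured for 7 genes, 6 of them higher in the male pool, and their median was 0.070. The 1 outside complex IV, Ndufa10l1, was at 0.015, with -0.12 on its second probe. Ndufa4l2, which is induced at low oxygen and replaces Ndufa4, gave 29.6 units in the male pool and 20.4 units in the female pool. Its difference of 0.57 (1.49-fold) was 2.93 technical SD, was 0.29 on its second probe and was 0.26 with normexp. The dimmest probes of any kind that counted as well above background had 15.1 units in the male pool and 12.9 units in the female pool. Cox8b, an isoform of heart and skeletal muscle, gave 60.05 units in the male pool and 51.03 units in the female pool, a difference of 0.27 that was 1.38 technical SD and 0.14 with normexp. Of 5 markers of brown fat and muscle, Ckm and Ucp1 were not well above background, and the summed signal of the list was 0.285 times the 75th percentile in the male pool and 0.286 times in the female pool. Cox4i2, the isoform of lung and of oxygen-sensing cells, gave 2882 units in the male pool and 2738 units in the female pool, which is 0.11 or 2.65 technical SD. Cox6a2, the muscle partner of Cox6a1, was at 0.070 on one probe and -0.042 on the other, and Cox6b2, the testis partner of Cox6b1, at 0.043. Cox7a2l, which helps to join complexes III and IV, was at -0.063. Cox8c, a testis isoform, was not well above background in either pool. Among 5 endothelial markers 4 were higher in the male pool and none was below background, and their summed signal was 2.44 times the 75th percentile in the male pool and 2.20 times in the female pool. The part of vessel content in the Cox4i2 value was not tested.

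Complex V, the ATP synthase, was balanced, with 9 of 16 genes higher, 7 lower and a median of 0.0040, which was below 0 under median centring and quantile normalization. In its catalytic head, Atp5f1a (alpha) was at 0.049, its second probe being at -0.057, and Atp5f1b (beta) was at -0.027. Atp5f1c, the rotating gamma subunit, gave 9127 units in the male pool and 9922 units in the female pool, a difference of -0.087 and 2.53 technical SD. Atp5f1e (epsilon) was at 0.080, where the spot lay in a patch, and at 0.047 with its other probe outside patches. Atp5me, which helps the enzyme to form dimers, gave 76003.5 units in the male pool and 71567 units in the female pool. At 0.12 it was highest in the complex, and its only spot lay in a patch. Atp5mc1 and Atp5mc2, which encode the same mature ring protein, were at -0.029 and -0.028. One probe of Atp5mc2 was printed on 10 spots, which lay between 9717 and 10778 units in the male pool (median 10206) and between 10052 and 11105 units in the female pool (median 10548). The mean difference of those spots was -0.0026 with an SD of 0.032, and 4 of the 10 were higher in the male pool. Atp5if1, the inhibitor that stops the enzyme from running backwards, was at 0.0099.

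**Figure D3:**
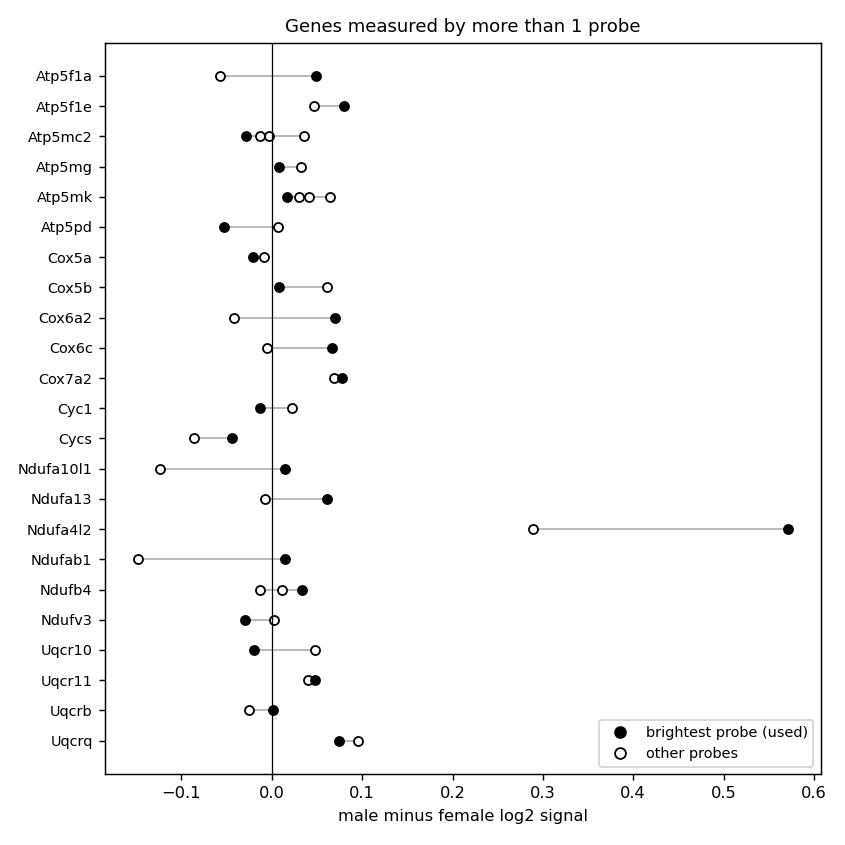
Male minus female log2 signal of each probe for the 23 subunit genes with more than 1 probe well above background on both arrays, with the brightest probe filled and the others open. For 13 genes the probes fall on both sides of 0; Cox7a2, Uqcrq, Uqcr11 and Cycs are among the 10 whose probes share a side.

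Probes of 1 gene disagreed by about as much as genes differed from 0. In the 23 genes with several measured probes, the median range between probes was 0.048 and the widest 0.28, for Ndufa4l2. All probes had 1 sign in 10 of the 23 genes and differing signs in 13. A difference of a few hundredths in a gene with a single probe is therefore no larger than the disagreement seen between probes.

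Core subunits as a whole were lower more often than accessory ones, and signal moved with this. Of the 21 core genes, which carry redox centres or form complex II, the centre of complex III or the ATP synthase head, 6 were higher against 15 lower in the male pool, and their median was -0.027. The 51 accessory subunits had 26 higher against 25 lower and a median of 0.0018. Of all genes and transcripts above the 75th percentile 43.2% were higher and 56.8% lower. At log2 signals of 0 to 2, core genes had a median of -0.030 (11 genes) and accessory genes -0.039 (5 genes). At 2 to 4 the medians were -0.027 (8 core genes) and -0.016 (29 accessory genes), and above 4 they were 0.065 (2 core genes) and 0.023 (14 accessory genes).

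Among subunit genes above the 75th percentile, the brightest had the highest median, and the same was seen over all genes and transcripts. The 6 subunit genes at or below the 75th percentile, with Ndufa4l2 and Cox8b among them, had a median of 0.088 with 5 higher. Medians of the subunit genes were -0.030 at log2 signals of 0 to 2 (18 genes), -0.020 at 2 to 4 (40 genes) and 0.041 above 4 (16 genes, of which 13 were higher). Over all genes and transcripts the medians in those ranges were -0.025 (3239), 0.00083 (1134) and 0.033 (272). After the median of the 200 genes nearest in signal was subtracted from each gene, a step added once this trend had been seen, the subunit genes had a median of -0.0064, with 36 higher against 44 lower. On that scale complex IV was at 0.014 and complex V at -0.012. The core genes were at -0.024 with 6 higher and 15 lower, and the accessory genes at -0.0048 with 24 higher and 27 lower. With normexp instead, the core genes had a median of -0.0078 and all genes 0.0079.

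**Figure D4:**
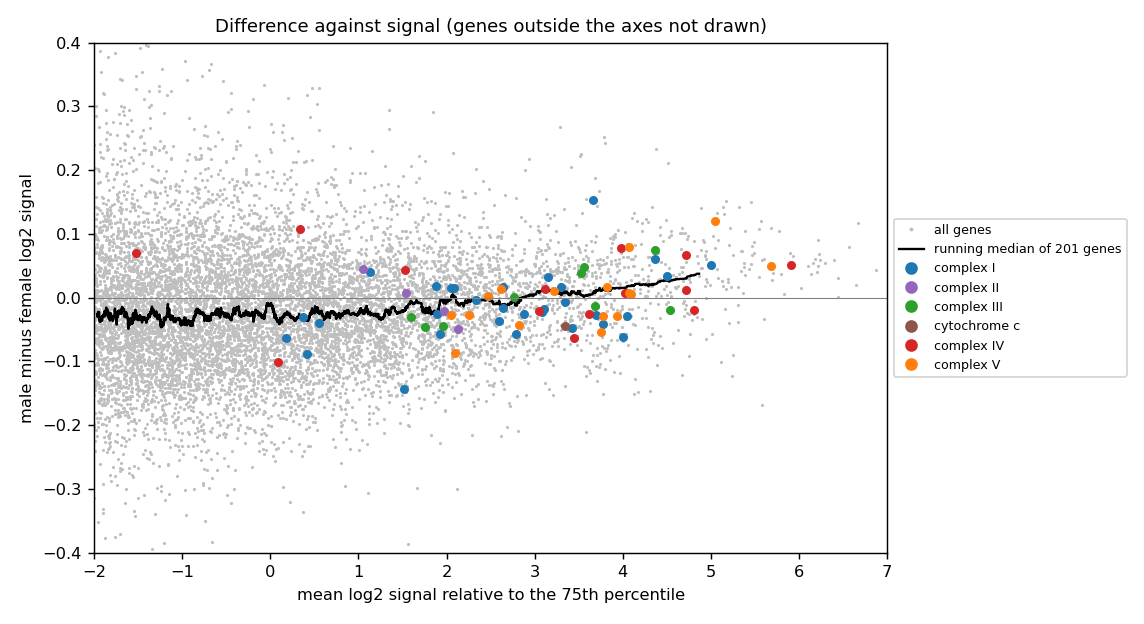
Male minus female log2 signal against mean log2 signal for all genes (grey), with their running median (black line) and the subunit genes coloured by complex; genes outside the axes, the dimmest among them, are not drawn. The running median climbs from below 0 at the left to above 0 for the brightest genes, and the subunit genes follow it from a median of -0.030 at 0 to 2 to 0.041 above 4.

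Subunit genes on the X chromosome, present in 1 copy in males, were close to equality. Ndufa1 gave 19825 units in the male pool and 19838 units in the female pool, a difference of 0.033. Ndufb11 was at 0.017 and Cox7b at 0.013, and all 3 were within 1 technical SD of 0.034.

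Genes that build and serve the respiratory chain were mostly a little lower in the male pool, as were 55% of all genes and transcripts. Of 42 measured assembly factor genes 12 were higher against 30 lower, and the median was -0.041, or -0.0086 with the signal trend removed. Cox20, which helps to mature a complex IV subunit, was at -0.59 and Cox19 at -0.34, both dim, and with normexp they were at -0.16 and -0.14. Cox16 was at 0.48, and its spot lay in a patch. The mitochondrial ribosome had 21 genes higher against 47 lower (median -0.019), and protein import had 5 against 15 (median -0.027). With the signal trend removed these medians were -0.00021 and 8.5e-05. Timm44, an import motor subunit, was at 0.29 on a probe of 21.8 units in the male pool and 18.2 units in the female pool.

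Fuel supply genes were likewise more often lower than higher in the male pool, where 55% of all genes and transcripts were lower. In the citric acid cycle 3 genes were higher against 11 lower (median -0.042, or -0.033 with the signal trend removed). Idh3a, a subunit of isocitrate dehydrogenase, was at -0.18. Pyruvate entry had 3 higher against 7 lower, at a median of -0.0098 that was above 0 with quantile normalization, with normexp and with the signal trend removed. Pdhb, a subunit of pyruvate dehydrogenase, was at -0.20. Pdk4, the kinase that switches that enzyme off, gave 34.3 units in the male pool and 21.0 units in the female pool, a difference of 0.74, or 0.35 with normexp. Glycolysis had 2 higher against 15 lower (median -0.061, or -0.059 with the signal trend removed).

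Regulators of mitochondrial biogenesis and of mitochondrial DNA had 3 genes higher against 18 lower in the male pool, where 55% of all genes and transcripts were lower. The median of these regulators was -0.10, or -0.089 with the signal trend removed and -0.068 with normexp. Tfam, which packages mitochondrial DNA, gave 1472 units in the male pool and 1632 units in the female pool and was at -0.12. Polg2, a subunit of its polymerase, was at -0.31, while the spots of Yy1, at -0.43, and of the helicase gene Twnk, at -0.29, lay in patches. Of the GABP subunits, Gabpa was at -0.032 and Gabpb1 at -0.13. The coactivators Ppargc1a, Ppargc1b and Pprc1 were at -0.013, -0.12 and -0.097, and the nuclear receptor Esrra was at 0.017. Nrf1 was at 0.019 on a dim probe of 71.6 units in the male pool and 72.3 units in the female pool, and at 0.14 with normexp; Gabpb1 was at 0.015 and Ppargc1a at 0.012 with normexp. Carriers and uncoupling proteins had 2 higher against 9 lower (median -0.061, or -0.057 with the signal trend removed). Among these Ucp2, an uncoupling protein relative found in hypothalamic neurons, gave 225 units in the male pool and 354 units in the female pool, a difference of -0.62 from a spot that lay in a patch. Ucp1 and Ucp3 were not well above background in either pool. Mitochondrial quality and antioxidant genes had 5 higher against 8 lower (median -0.030, or -0.0059 with the signal trend removed).

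**Figure D5:**
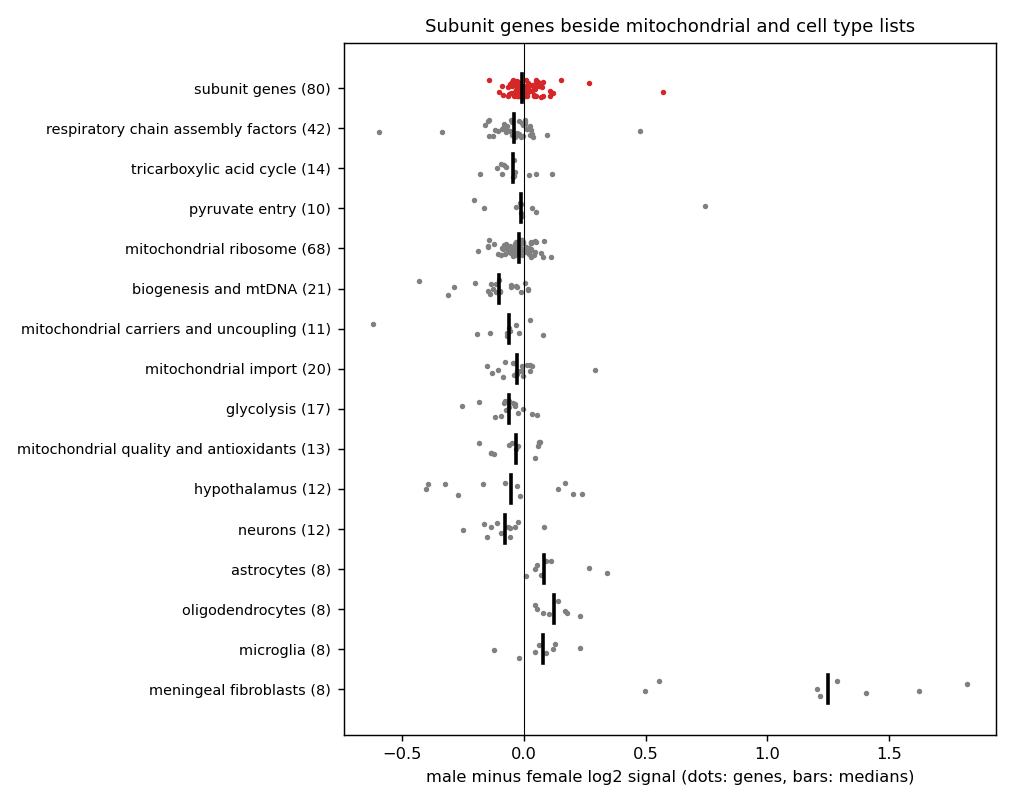
Male minus female log2 signal of the 80 subunit genes (red), of related mitochondrial lists and of cell type marker lists (grey), 1 dot per gene well above background on both arrays, with medians as bars and the number of genes in brackets. The subunit genes are narrow around 0, the other mitochondrial lists have medians from -0.10 to -0.0098, and the glial and meningeal lists lie to the right.

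Of 13 hypothalamic markers 12 exceeded background clearly on both arrays, and Otp did so on the female array only. Of these 12, 4 were higher against 8 lower in the male pool (median -0.053). At 1.2-fold, 4 were lower and 0 higher, against 5.73% and 7.16% of all genes and transcripts. The 4 were Crh at -0.40, whose spot lay in a patch, Sim1 at -0.39, Hcrt at -0.32 and Nkx2-1 at -0.27. With normexp Sim1, on a dim probe, was at -0.22. Markers of the cell types in the pools moved in both directions beside the subunit genes. Of 12 neuronal markers 1 was higher against 11 lower in the male pool (median -0.078), and their summed signal was 40.0 times the 75th percentile in the male pool and 42.7 times in the female pool. All 8 astrocyte markers were higher, with sums of 121 times in the male pool and 114 times in the female pool, and so were all 8 oligodendrocyte markers, with sums of 174 times in the male pool and 161 times in the female pool. Microglial markers were higher for 6 of 8, with a median of 0.078. None of the markers of these 4 cell types was below background. Meningeal fibroblast markers were higher for 8 of 8, with sums of 4.32 times in the male pool and 1.70 times in the female pool, and red blood cell markers for 6 of 6, with sums of 34.5 times in the male pool and 19.7 times in the female pool. Pituitary markers had sums of 1.08 times in the male pool and 0.370 times in the female pool, most of it from Cga, whose spot lay in a patch. Of the 4 pituitary markers measured on both arrays 3 were higher in the male pool and 1, Pou1f1, was lower (-0.32). Tshb, outside patches, gave 257 units in the male pool and 21.2 units in the female pool. Its difference was 3.64, or 1.80 with normexp, and Lhb was at 0.35. Prl was well above background on the female array only, and Fshb and Gh1 on neither. Sums of choroid plexus markers were 1.09 times in the male pool and 0.975 times in the female pool. The part of cell type content in the subunit values was not tested, and in such pools fewer cells of a type and less RNA per cell cannot be told apart. Aldoc and Eno2 are each in both the glycolysis list and a marker list.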

How the data were processed

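Per the file headers, the deposited array files hold background-subtracted spot intensity from Feature Extraction 11.5.1.1 (protocol GE1_1105_Oct12, design build rn4), not scaled between arrays; version 9.1 is named in the submitters' processing notes. The authors' deposited series matrix intensity equalled 100 times this signal over the 75th percentile, for all 42947 values per array within 0.01% plus rounding. Control spots and 664 spots flagged as outliers on an array were dropped; none was saturated. Log2 signals were centred on the 75th percentile of 58717 rat spots and averaged per probe. Well above background means that over 50% of a probe's spots carried that flag (71.6% of the male and 73.0% of the female rat spots), with local background at a median of 33 units on each array. Accessions named 21106 of 45591 probes (46.3%) through a GRCr8 gene table, used for names, chromosomes and promoters. Probe sequences were not used, so cross-hybridisation with pseudogene transcripts could not be checked; 102 pseudogene symbols were left out. Coasy, a coenzyme A synthesis gene that shares the start of its symbol with assembly factors, was kept out of their list. Members, lists, thresholds and alternatives were chosen with earlier results of these data known. Genes were named by rule: extremes of each complex and list, genes 1.2-fold apart or not measured, X-linked genes, core subunits and paralogue pairs. Computation used Python 3.11.15, pandas 2.3.3 and numpy 2.4.6, tested on simulated data, and limma 3.58.1 for normexp, run on spot medians because the files give no spot means. A longer NRF1 pattern was also searched and is not reported. Precision is limited by the number of arrays. The value of 1 subunit gene is not reported here, although it is included in counts and medians.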

Additional observations from a re-analysis of the deposited data

How the results depend on the processing

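No paired analysis was possible because each sex had 1 array. The results follow the scaling, since all subunit differences are small. The median over the subunit genes, -0.0051, was -0.036 with median centring, -0.020 with quantile normalization, 0.0094 with normexp and -0.010 without spots in patches, while all genes were at -0.047, -0.028, 0.0079 and -0.017. Relative to all genes the subunit median was 0.011 with percentile or median scaling, 0.0084 with quantile normalization, 0.0015 with normexp, -0.0064 with the signal trend removed and -0.029 with no filter on dim probes. With median centring 23 subunit genes were higher in the male pool. The count at least 1.2-fold higher was 1 with median centring, 1 with quantile normalization and 0 with normexp. With no filter on dim probes 1 gene, Cox8c, became at least 2-fold lower, and it was the 1 gene at least 1.2-fold lower. The count for complex I, 12 higher against 21 lower, was 7 against 26 with median centring and 10 against 23 with quantile normalization. With normexp the complex I count was 15 against 18, and with trend removal 14 against 19. That for complex V, 9 against 7, was 3 against 13 with median centring and 6 against 10 with trend removal. Complex I was at -0.052 with median centring, -0.030 with quantile normalization, -0.0078 with normexp and -0.0048 with the signal trend removed, and complex II at -0.037 with median centring. Complex III with cytochrome c was at -0.047, -0.030 and 0.011 under median centring, quantile normalization and normexp. Complex IV was at 0.012, 0.029, 0.030 and 0.014 under median centring, quantile normalization, the mean over probes and trend removal, and complex V at -0.027, -0.021 and -0.012 under median centring, quantile normalization and trend removal. Single genes changed sign in 16 of 80 cases with median centring, 10 with quantile normalization, 7 with trend removal, 6 with normexp, 6 with the mean over probes and none of 76 without patches, of 80 in the deposited values or of 80 without the filter. Over these alternatives 54 of the 80 genes kept 1 sign. Causes of these shifts were not tested.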
